A study of Arabidopsis thaliana with 4 samples.

Results

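Binding of AGAMOUS (AG) was followed at 7 Arabidopsis genes for the growth and polarity of lateral organs: JAG (AT1G68480), NUB (AT1G13400), AS1 (AT2G37630), AS2 (AT1G65620), KAN1 (AT5G16560), KAN2 (AT1G32240) and TCP4 (AT3G15030). They were chosen by locus as known regulators of leaf and floral organ growth, with earlier results of these data known, and form 7 of 27444 protein-coding nuclear genes. In the authors' deposited target table of 1958 genes, 4 of the 7 (57.1%) were listed, JAG, AS1, KAN2 and TCP4, against 6.62% of all protein-coding genes. Because of that choice these shares describe the 7 genes and were not tested. NUB, AS2 and KAN1 were not listed. With peaks at or above the list's median score, 2 of the 7 were left, AS1 and JAG, against 3.42% of all protein-coding genes. By region, 2 of the 7 had a peak within 1000 bp downstream (1.29% of all protein-coding genes), 1 within 1000 bp upstream (2.34%), 1 at 2000 to 3000 bp upstream (1.27%), 1 inside the gene (1.02%) and none at 1000 to 2000 bp upstream (1.25%).

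The data came from chromatin immunoprecipitation and sequencing (ChIP-seq) of Arabidopsis thaliana inflorescences of the Ler-0 background. The AG-GFP group carried a GFP-tagged AG protein together with AP1-GR in ap1 cal plants, and the negative control group carried AP1-GR in ap1 cal plants with no tagged AG. Each group had 2 libraries, and anti-GFP antibody AB290 was used in all 4. Every plant, controls included, thus had the ap1 and cal mutations, carried the glucocorticoid-inducible 35S:AP1-GR transgene and was treated with 10 μM dexamethasone, in a solution with 0.01% ethanol and 0.015% Silwet L-77, 4 days before collection, when flowers were at about stages 4 to 5.

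Dexamethasone lets AP1-GR enter the nucleus, so that many arrested meristems start flowers together. The material is whole inflorescence tissue and mixes cells with and without AG. The promoter that drives AG-GFP is not given in the sources used here. Each peak has 1 score and each gene 1 highest score over all libraries. No value per library was used here, so the values below carry no replicate error and were given no test. The sequencing depth is unknown. The score is the authors' Poisson score, whose scale is not stated, and it is used only to describe and rank peaks within this list.

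AG, a MADS-domain transcription factor, gives stamens and carpels their identity and ends the activity of the floral meristem. Floral organs are held to be modified leaves, and the same regulators set growth and the upper and lower sides in both. JAG and its close relative NUB encode zinc finger proteins that promote growth of lateral organs and act together in stamens and carpels. AS1, a MYB-domain protein, and AS2, a LOB-domain protein, act in one complex that keeps the class I KNOX genes KNAT1, KNAT2 and KNAT6 off in leaves. KAN1 and KAN2 encode GARP-type proteins that specify the lower (abaxial) side of organs. TCP4 promotes differentiation in growing leaves and is held in check by the microRNA miR319.

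AS1 had the highest score of the 7 genes and was the only one of them with peaks in more than 1 region of the table. Its highest peak scored 727.5 and lay within 1000 bp upstream of the gene, on chromosome 2 from 15784261 to 15784636 (TAIR10), a stretch of 376 bp with the peak position at 15784402. A further peak of 143.81 lay 2000 to 3000 bp upstream, from 15785795 to 15785942. The gap between the peaks was 1158 bp, and only 8.97% of the 1416 gaps between neighbouring peaks of the list were 1200 bp or shorter. Of all peaks, 7.25% scored higher than the main AS1 peak, and 48.1% scored higher than the other. The list's median score was 139.67.

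No other target gene was linked to either AS1 peak. Both lay between AS1 and EXP3, and EXP3 was not listed. Of the 1237 peaks linked to a target gene, 577 (46.6%) were linked to 1 gene only. In the whole table, 7.15% of the 1958 target genes had a higher highest score than AS1. Peaks in 2 or more regions were listed for 150 target genes (7.66%). The AS1 combination, within 1000 bp and 2000 to 3000 bp upstream and nowhere else, was shared by 27 target genes including AS1, among which AS1 ranked 4th by score and the median was 216.69. Next above AS1 in this group was AT2G22530 with 1077.97, and next below was UAP56a (AT5G11170) with 564.02.

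JAG was listed with a single peak, downstream of the gene. This peak scored 327.59, within 1000 bp of the 3′ end, on chromosome 1 from 25683845 to 25684217, a stretch of 373 bp. In the table, 20.0% of target genes had a higher highest score. A peak in the downstream region and in no other was listed for 336 target genes (17.2%). Their median score was 133.69, and JAG ranked 52nd among them. SPA1 (AT2G46340), a regulator of light signalling, came next above JAG in this group with 329.32, and AT1G53080 and ACO1 (AT2G19590) had the same score as JAG.

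The stretch between JAG and its neighbour AT1G68470 held 3 peaks in all, of which only the nearest was listed for JAG. The next peak away from JAG scored 321.1, on chromosome 1 from 25682262 to 25682471. It was linked to no target gene, and 1373 bp separated it from the listed peak. Gaps of 1400 bp or shorter made up 10.0% of all gaps. The outermost peak, from 25679959 to 25680118, scored 50.77 and was listed for AT1G68470, an exostosin-family gene. The 3′ side of JAG thus carried peaks of 327.59, 321.1 and 50.77, of which the target table credits 1 to JAG.

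NUB, the close relative of JAG, was not in the table, and a high-scoring peak lay beside it. That peak scored 844.33, higher than the score of any of the 4 listed genes, and only 5.28% of the 1421 peaks scored higher. It covered 637 bp on chromosome 1 from 4600271 to 4600907, between NUB and AT1G13410, and 3.8% of peaks were wider. It was linked to AT1G13410 alone, a pentatricopeptide repeat gene, for which the authors' table lists it within 1000 bp upstream. The table credits a gene with peaks in the gene, in the 3000 bp before its 5′ end and in the 1000 bp after its 3′ end, and the peak lay outside that window of NUB. On the other side of NUB, the nearest peak ended at 4549841 and scored 126.58.

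AS2, the partner of AS1, had no peak near it. It lay in a stretch of 624084 bp on chromosome 1 without a peak, from a peak that ended at 24136536 (score 469.06) to one that began at 24760621 (210.92). Only 1.55% of the gaps between neighbouring peaks were longer, against a median gap of 39743 bp. The stretch held 155 protein-coding genes. The nearest target genes were G-TMT (AT1G64970), 89 genes away on one side, and MIR157a (AT1G66783), 149 genes away on the other. The AS1 and AS2 loci thus differed from each other in the peak list, with 2 listed peaks for AS1 and none for AS2, and 1 value per gene allows no test of this difference.

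**Figure D1:**
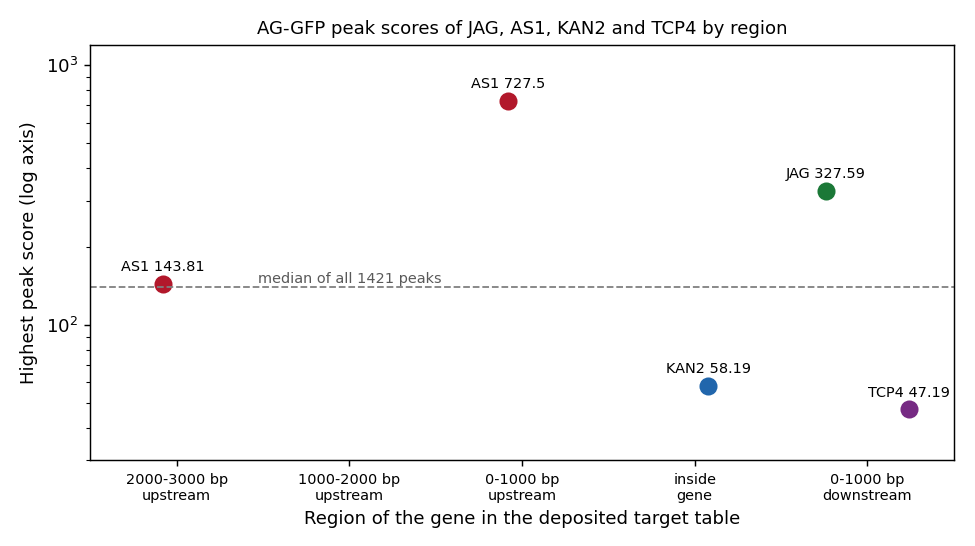
Highest AG-GFP peak score (log axis) in each of the 5 regions of the deposited target table for JAG, AS1, KAN2 and TCP4; each point is 1 score, and regions with no point are listed at 0. AS1 has points at 727.5 and 143.81 upstream, JAG and TCP4 have theirs downstream at 327.59 and 47.19, KAN2 has 58.19 inside the gene, and the dashed line is the median of all peaks, 139.67.

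KAN2 was listed with a low-scoring peak inside the gene. It scored 58.19 on chromosome 1 from 11628890 to 11629002, and was 113 bp wide. Of all peaks, 86.2% scored higher and 85.6% were wider, and 26 peaks of the list shared this score. Among the 248 target genes with a peak inside the gene and in no other region, the median score was 131.075 and KAN2 ranked 208th. AGL24 (AT4G24540), a MADS-box gene of flowering, and MUTE (AT3G06120), a bHLH gene of stomatal development, were among the 4 genes of this group with the same score as KAN2.

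A peak with a higher score lay between KAN2 and its neighbour RCD1 and was linked to no target gene. It scored 812.71 on chromosome 1 from 11621792 to 11622194, a stretch of 403 bp, and 5.91% of all peaks scored higher. Its position was 6935 bp from that of the peak inside KAN2. Links could be made only for the 1916 of 1958 target genes with a known span. Among the 184 peaks linked to none of these genes, whose median score was 132.965, this peak ranked 10th. KAN2 was the gene nearest to this peak, and neither table gives a strand, and a peak inside the gene does not show one, so the peak cannot be called upstream or downstream of KAN2. The listing of KAN2 therefore rests on a score of 58.19, while the higher-scoring peak beside the gene was not counted for it.

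KAN1 had no peak near it. It lay in a stretch of 309846 bp without a peak on chromosome 5, between a peak that ended at 5306788 (score 199.53) and one that began at 5616635 (110.99). Of all gaps, 4.17% were longer, and the stretch held 86 protein-coding genes. Of the other KANADI genes, ATS (KAN4, AT5G42630), which acts in the integuments of the ovule, was listed with a downstream peak of 85.33 on chromosome 5 from 17073619 to 17073747, linked also to AT5G42635. KAN3 was not listed. The KANADI family thus had 2 of 4 genes in the table, against 6.62% of all protein-coding genes. Neither score reached the median of the peak list. Without peaks linked to more than 1 target gene, only KAN2 was left, against 1.92% of all protein-coding genes.

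TCP4 had the lowest score of the 4 listed genes. Its only listed peak scored 47.19, within 1000 bp downstream, on chromosome 3 from 5064323 to 5064418, and was 96 bp wide. Of all peaks, 93.2% scored higher, and the lowest score in the list was 36.35. The peak was shared with AT3G15040, for which it also lay within 1000 bp downstream. Among the 336 genes with a downstream peak and no other, TCP4 ranked 316th, and DAD1, whose enzyme starts jasmonate synthesis in stamens, had the same score.

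None of the other 7 CIN-type TCP genes, TCP2, TCP3, TCP5, TCP10, TCP13, TCP17 and TCP24, was in the table. These genes, with TCP4, slow growth and promote differentiation at organ margins. Other TCP genes were listed. A count by name, made after the values were seen, found 5 of 22 TCP genes in the table, TCP4 included. This was 22.7%, against 6.62% of all protein-coding genes, and was not tested. The 4 beside TCP4 were BRC1 (205.2), TCP9 (133.4), TCP15 (85.33) and TCP14 (67.22).

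The microRNA miR319 cleaves the transcripts of TCP4 and of several of its relatives, and 1 of its 3 genes was listed. MIR319A (AT4G23713), also known as JAW, scored 58.19 within 1000 bp upstream, with the peak on chromosome 4 from 12352339 to 12352472, which was linked also to AT4G23710. MIR319B and MIR319C were not listed. The mature sequence of 20 bases is shown, and its pairing with TCP4 was not examined. It is printed 5′ to 3′ with bases 2 to 8 in capitals, in the DNA letters in which the annotation in the authors' deposited table gives it. The capitals mark positions only and were not matched to a target site.
MIR319A: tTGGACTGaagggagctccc
MIR319A and TCP4 both scored below the median peak, and each shared its peak with another gene.

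**Figure D2:**
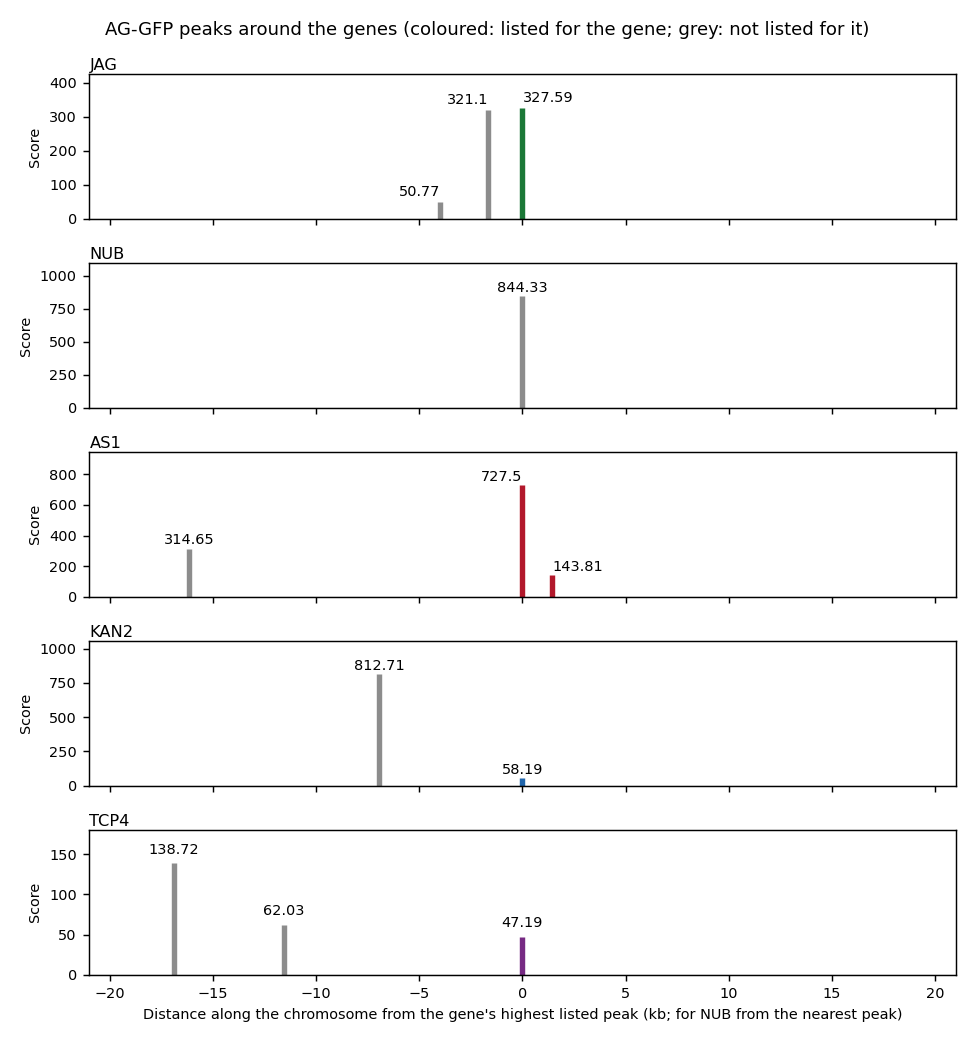
AG-GFP peaks within 20000 bp of JAG, NUB, AS1, KAN2 and TCP4; the x axis is the distance along the chromosome in kb from the highest peak listed for the gene (for NUB from the nearest peak), and the height of a line is the peak score. Coloured lines are peaks listed for the gene and grey lines are not: the 844.33 peak beside NUB, the 812.71 peak beside KAN2 and the 321.1 peak beside JAG are grey, and AS2 and KAN1 had no peak in this range.

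Peak widths at these genes ran between 96 and 637 bp. The main peaks of AS1 (376 bp) and JAG (373 bp) and the unlisted peaks beside NUB (637 bp) and KAN2 (403 bp) were wider than the median of 234 bp. The peaks of KAN2 (113 bp) and TCP4 (96 bp) and the further AS1 peak (148 bp) were narrower. The unlisted peak of 321.1 beside JAG was narrower than the listed one, at 210 bp.

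**Figure D3:**
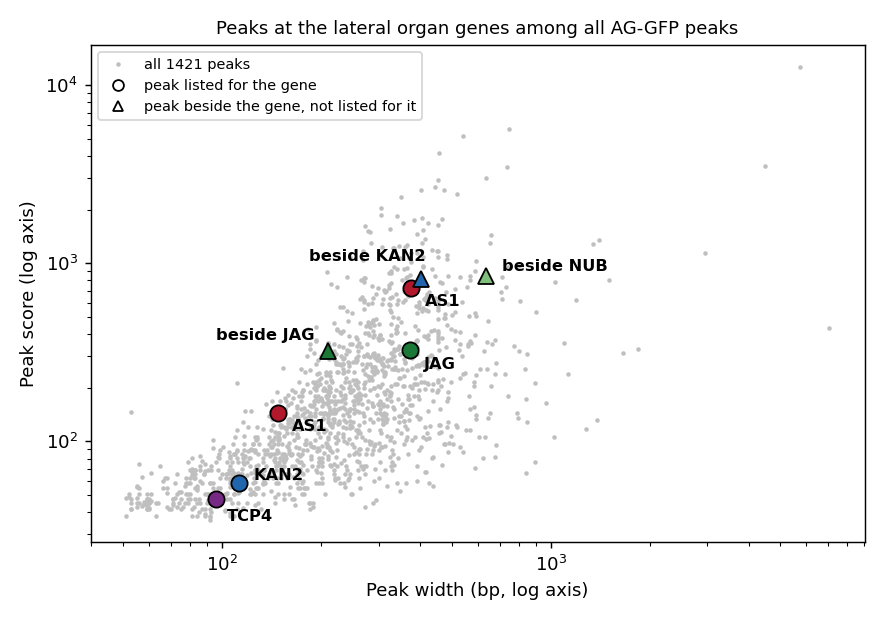
Score against width in bp (both log axes) for all 1421 AG-GFP peaks (grey), with peaks listed for JAG, AS1, KAN2 and TCP4 as circles and unlisted peaks beside JAG, NUB and KAN2 as triangles. The triangles beside KAN2 (812.71) and NUB (844.33) stand above the main AS1 peak (727.5), and the KAN2 (58.19) and TCP4 (47.19) circles stand near the lower end of the list.

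The partners and opponents of these genes were looked up in lists of 53 further genes, of which 20 (37.7%) were in the table. Of the 50 protein-coding ones, 19 (38.0%) were listed, against 6.62% of all protein-coding genes. The lists were chosen with earlier results of these data known, so these shares describe the lists and were not tested. The median score of the 20 listed genes was 188.885, against 143.81 for all target genes.

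Of the class I KNOX genes, 3 of 4 were listed, against 6.62% of all protein-coding genes, and this was not tested. KNAT1, KNAT2 and KNAT6 are repressed in leaves by AS1 and AS2, while STM acts upstream and represses AS1 in the meristem. KNAT6 scored 238.98 inside the gene, where the peak spans chromosome 1 from 8298055 to 8298596, and 193.9 at 2000 to 3000 bp upstream. KNAT2 had 135.33 inside the gene and 97.13 within 1000 bp upstream, and STM had 97.13 at 2000 to 3000 bp upstream. The 238.98 peak of KNAT6 was linked also to AT1G23360, and the 135.33 peak of KNAT2 to AT1G70518. Without peaks linked to more than 1 target gene, 3 of the 4 genes were still listed. KNAT1 was not listed. All scores of these genes were below that of AS1.

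Genes for the upper organ side and for the lower side were both found in the table. Among the class III HD-ZIP genes, which specify the upper (adaxial) side against the KANADI genes, 3 of 5 were listed, against 6.62% of all protein-coding genes. They were PHV (1045.14), PHB (211.27) and REV (168.86), and ATHB8 and ATHB15 were not listed. The peaks of PHV and REV lay 1000 to 2000 bp upstream. With peaks within 1000 bp upstream or inside the gene, 1 of the 5 was left, against 3.31%. The lowest score of the 3 listed HD-ZIP genes exceeded those of both listed KANADI genes, KAN2 and ATS. That comparison leaves out the unlisted peak of 812.71 beside KAN2, which scored higher than PHB and REV and lower than PHV. Of the abaxial genes beside KANADI, the auxin response factor gene ETT was listed, with 678.47 at 2000 to 3000 bp upstream and 97.13 inside the gene, and ARF4 was not. The YABBY genes FIL, YAB2, YAB3 and YAB5 were not listed, and neither were WOX1 and PRS, homeobox genes that expand the blade. The difference in counts between these lists of 2 to 5 genes was not tested.

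All 6 boundary genes were listed, against 6.62% of all protein-coding genes, and this was not tested. Without peaks linked to more than 1 target gene, 4 of the 6 were left, against 1.92% of all protein-coding genes. With peaks within 1000 bp upstream or inside the gene, 3 were left, against 3.31%. The boundary genes restrain growth between organs or at the base of leaves. LOB, the relative after which the family of AS2 is named, had a downstream peak of 173.69 on chromosome 5 from 25307562 to 25307795. CUC3 scored 152.42 inside the gene, with the peak on chromosome 1 from 28673764 to 28674098. The scores of the others were 301.85 for BOP1, 204.08 for BOP2, 152.42 for CUC2 and 58.44 for CUC1. The CUC2 peak was linked also to AT5G53940, and the CUC1 peak to AT3G15160 and AT3G15180. A count by name, made after the values were seen, found 3 of 40 genes named LBD in the table (7.5%), close to the 6.62% of all protein-coding genes. They were LBD4 (156.21), LBD19 (67.22) and LBD42 (50.77), the last of which lies 3 genes from JAG. LOB, listed with 173.69, fell outside this count by name.

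Of 13 genes for the extent of organ growth, 3 were listed (23.1%), against 6.62% of all protein-coding genes, and this was not tested. Without peaks linked to more than 1 target gene, 2 of the 13 were left, against 1.92%. With peaks within 1000 bp upstream or inside the gene, 2 were left, against 3.31%. AIL6, an AP2-domain gene related to ANT, scored 301.85 inside the gene, with the peak on chromosome 5 from 3317929 to 3318364. KLU, a cytochrome P450 gene that prolongs growth, had one of 283.91 at 1000 to 2000 bp upstream. BB, an E3 ubiquitin ligase gene that limits organ size, had one of 205.6 within 1000 bp upstream, which was linked also to AT3G63540. ANT, AN3, ARGOS, ARL, DA1, ROT3, AN, CYCD3;1 and the genes of the cell cycle inhibitors KRP2 and KRP4 were not listed.

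Among other genes that encode proteins with a single zinc finger of the kind found in JAG, SUP and GIS were listed and RBE and KNU were not. SUP, which keeps stamens out of the carpel whorl, had 365.01 within 1000 bp upstream. A higher peak of 1238.74 lay between SUP and its neighbour URO and was linked to no target gene. GIS, a trichome gene, had 47.78 at 2000 to 3000 bp upstream. PTL, a petal and sepal boundary gene, was not listed.

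**Figure D4:**
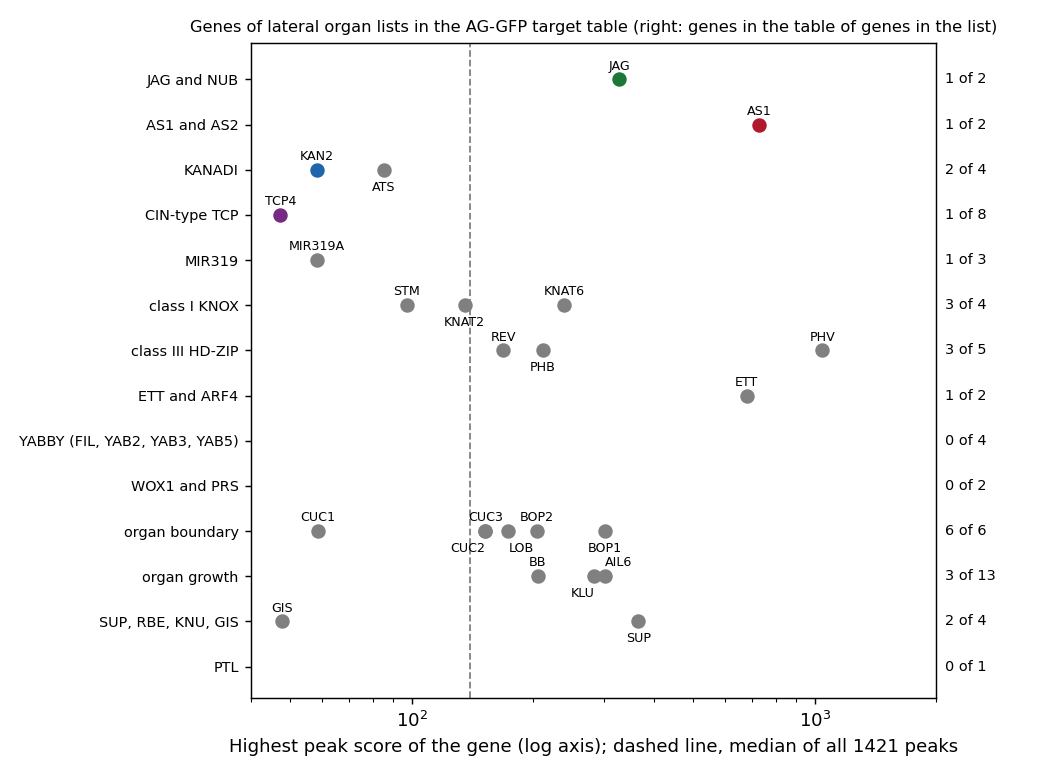
Highest AG-GFP peak score (log axis) of each listed gene, with 1 row per gene list; coloured points are JAG, AS1, KAN2 and TCP4, grey points are other genes, and the dashed line is the median peak score of 139.67. The counts at the right run from 6 of 6 boundary genes to none of the YABBY, WOX and PTL rows, and AS1 (727.5) stands below PHV (1045.14) and above ETT (678.47).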

How the data were processed

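ChIP-seq was made from 2 AG-GFP and 2 negative control libraries. The deposited files list 1421 peaks and 1958 target genes, each with the authors' Poisson scores, per the file headers. Per the submitters' processing notes, the genome build was TAIR10; the aligner, caller, threshold and handling of replicates were not given in the sources used here. In the peak list, the position and score headers are exchanged: values under the score header lie within their peak for all 1421 peaks, and all 4081 entries above 0 of the target table recur under the position header, so the columns were read by their values.

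Genes were looked up by locus. A peak was linked to a target gene where its score equalled an entry of that gene within 0.006 and its position lay within 3000 bp of the gene's span in the RefSeq table of TAIR10.1. That table matched 1916 of 1958 target genes and gave names and neighbours, and none of its coordinates is printed. It holds no strand, so upstream scores were recomputed from its spans on either side of each gene, and those of 1 side or the other matched for 88.6% of these genes. A gene with no upstream peak matched wherever 1 side held no peak within 3000 bp, so this share is a weak check of the spans. Shares and ranks were computed in Python 3.11.15 with pandas 2.3.3 and numpy 2.4.6. The link was tested on simulated data in which each peak had its own score and lay near 1 gene only. Equal scores and neighbouring genes were therefore not tested, while the peak list holds 568 distinct scores over 1421 peaks.

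The text names the 7 genes, genes that share their peaks, listed members of 14 gene lists, and the target genes next to each of the 7 in score with peaks in the same regions. Members and lists were chosen with earlier results of these data known. Further counts of TCP and LBD genes and peaks beside a gene but not listed for it were chosen after their values were seen. No sequence of promoters, peaks or proteins was used here, so the planned CArG-box search was not run.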

Additional observations from a re-analysis of the deposited data

How the results depend on the processing

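The count of 4 listed genes fell to 2 with only peaks that reach the median score (AS1 and JAG), to 2 with peaks within 1000 bp upstream or inside the gene and to 2 without the downstream region (AS1 and KAN2 in both). Over all protein-coding genes the same settings gave 3.42, 3.31 and 5.48%. The count was 4 with the nearest gene only and with any overlap of the whole peak, which added only peaks within 1000 bp of a gene, and 3 without shared peaks, where TCP4 was lost. Over all protein-coding genes these settings gave 3.65, 6.93 and 1.92%. AS1 was listed in all 6 of these alternatives, KAN2 in 5, JAG in 4 and TCP4 in 2, and NUB, AS2 and KAN1 in none. Of the 53 further genes, 11 were listed, against 20, with peaks within 1000 bp upstream or inside the gene, and the count was 14 to 21 in the other 5. JAG ranked 616th of 1915 linked target genes by score per bp of width, against 392nd of all 1958 by score. In the same order of measures, AS1 ranked 148th against 141st, KAN2 1343rd against 1702nd and TCP4 1399th against 1835th. With peaks within 5000 bp on either side of a gene, an alternative chosen after seeing the data, NUB joined the count (5 of 7, against 13.0% of protein-coding genes), 30 of the 53 further genes were counted, and the highest score of KAN2 became 812.71, against 58.19. No paired analysis was possible because the deposited tables were used as 1 value per peak or gene, with no value per library, and for the same reason no library was left out in turn.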
